A study of Mus musculus with 6 samples.

Results

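The genes of the endoplasmic reticulum (ER) stress and unfolded protein response were followed in lung endothelial cells (ECs) of angiotensin II (AngII)-infused mice. They are 10 of the 47729 genes in the deposited tables and are given by name. No measured value enters the rule, but the genes were picked with earlier results of these data known. All 10 were among the 14625 genes that passed the filter on low counts. They form 3 groups by role. Hspa5, Hsp90b1, Calr, Pdia4 and Pdia6 fold proteins inside the ER and are called the ER chaperones here. Atf4, Ddit3 and Trib3 make up the Atf4 arm. Herpud1 and Xbp1 stand between them.

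Libraries of polyA-selected RNA, 3 from WT and 3 from leene-KO (KO) mice, were sequenced, and all mice were male and 14 weeks of age. Both groups carried an osmotic pump that delivered AngII at 1000 ng/kg/min for 2 weeks, and no uninfused group was analysed here. KO mice lack, in every tissue, the region that corresponds to the human lncRNA gene LEENE, and WT mice were littermates. The lncRNAs of the deleted region were not analysed here, so the deletion was not checked in the libraries. The labels name CD31-enriched cells, whereas the study's methods describe capture with an antibody to CD144. The labels also say that cells of 3 mice per group were pooled, and it is not settled whether the 3 libraries of a group stand for 3 mice. The p-values below therefore measure the spread between libraries, which may be technical.

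In the ER, unfolded proteins draw the chaperone BiP (the product of Hspa5) away from 3 membrane sensors, IRE1, PERK and ATF6. IRE1 splices the Xbp1 mRNA and ATF6 is cut to a free transcription factor, and both then raise chaperone and degradation genes. PERK phosphorylates eIF2alpha, which slows translation in general while Atf4 mRNA is translated more, and ATF4 raises amino acid, redox and cell death genes such as Ddit3 and Trib3. Other kinases feed the same Atf4 arm without any ER signal (the integrated stress response), and secretory cells hold high levels of the chaperones at rest. Gene counts give the amount of Xbp1 and Atf4 mRNA. They do not separate spliced from unspliced Xbp1, nor do they show how much ATF4 protein is made.

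The regulatory sequence of several of these genes carries the letters that the ER stress factors are known to bind. Promoters were taken from RefSeq (GRCm38.p6), from 250 bases before to 50 after each start, and all 10 genes matched 1 of the 32851 promoters in the table. The ER stress response element (ERSE) was searched on both strands as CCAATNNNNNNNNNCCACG. It was present in 4 of the 10 genes (Hspa5, Hsp90b1, Calr and Pdia6) and in 0.119% of all promoters. ERSE-II, searched as ATTGGNCCACG, occurred in Herpud1 and in 0.0365% of all promoters. The 250 bases before the RefSeq start of these 5 genes are given next, written 5′ to 3′ on the gene's strand, since these are the chaperone and degradation genes with a complete element. Capitals mark ERSE in the first 4 genes. In Herpud1 the first run of capitals is a match to the C/EBP-ATF response element (CARE), the letters that ATF4 with a C/EBP partner is known to bind, and the second is ERSE-II.
Hspa5, chr2:34771840-34772089, plus strand: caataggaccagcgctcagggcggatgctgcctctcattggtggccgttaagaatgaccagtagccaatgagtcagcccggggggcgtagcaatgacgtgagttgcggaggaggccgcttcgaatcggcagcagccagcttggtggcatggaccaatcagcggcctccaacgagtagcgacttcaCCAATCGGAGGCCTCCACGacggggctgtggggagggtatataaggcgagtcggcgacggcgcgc
Hsp90b1, chr10:86705445-86705694, minus strand: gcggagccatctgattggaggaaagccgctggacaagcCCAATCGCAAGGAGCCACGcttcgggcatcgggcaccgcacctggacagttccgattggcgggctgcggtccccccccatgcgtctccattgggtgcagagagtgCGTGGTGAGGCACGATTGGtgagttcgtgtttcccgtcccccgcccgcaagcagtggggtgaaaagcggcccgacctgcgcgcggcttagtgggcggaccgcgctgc
Calr, chr8:84846932-84847181, minus strand: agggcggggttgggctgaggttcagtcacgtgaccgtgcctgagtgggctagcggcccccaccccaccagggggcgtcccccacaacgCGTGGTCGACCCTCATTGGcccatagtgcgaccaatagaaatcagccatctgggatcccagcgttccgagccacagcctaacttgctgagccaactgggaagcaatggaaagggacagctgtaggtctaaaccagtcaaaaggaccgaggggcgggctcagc
Pdia6, chr12:17266339-17266588, plus strand: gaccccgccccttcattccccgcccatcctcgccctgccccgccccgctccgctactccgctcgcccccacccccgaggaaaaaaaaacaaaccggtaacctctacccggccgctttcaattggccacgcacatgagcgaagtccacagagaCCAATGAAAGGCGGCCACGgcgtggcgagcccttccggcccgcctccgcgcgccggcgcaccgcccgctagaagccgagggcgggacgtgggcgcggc
Herpud1, chr8:94386179-94386428, plus strand: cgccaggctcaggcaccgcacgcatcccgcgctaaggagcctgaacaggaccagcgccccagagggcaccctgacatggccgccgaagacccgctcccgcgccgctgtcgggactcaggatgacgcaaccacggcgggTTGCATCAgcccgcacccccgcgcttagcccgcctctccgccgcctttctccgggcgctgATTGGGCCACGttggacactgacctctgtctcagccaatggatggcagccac

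Counted from the start, ERSE lay at -65 to -47 in Hspa5 and at -98 to -80 in Pdia6. Hsp90b1 held it at -212 to -194 and, on the other strand, at -107 to -89, and Calr held it at -162 to -144 on the other strand. ERSE-II of Herpud1 lay at -52 to -42. For Hspa5 the counted annotation begins 120 bases upstream of the RefSeq start, so that its ERSE falls inside the counted gene. The core of ERSE alone, CCACG, which is also the end of ERSE and ERSE-II, occurred in 7 of the 10 genes and in 32.8% of all promoters. The unfolded protein response element (UPRE) TGACGTG occurred in Hspa5, at -157 to -151, and in 2.01% of all promoters. CARE, searched as TGATGNAA, was in Trib3, at 15 to 22 bases after the start, and in Herpud1, at -112 to -105, against 3.97% of all promoters. These matches are a description of letters within a window. Atf4, Ddit3, Xbp1 and Pdia4 held no ERSE, ERSE-II, UPRE or CARE letters in the same window.

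Total counts per library lay between 24464324 and 35184063, and mitochondrial genes took 37.4% to 54.5% of them. On principal component 1 (42.6% of the variance over 14625 genes) WT replicate 2 lay at 22.2, within the KO libraries (13.4 to 35.4), while WT replicates 1 and 3 lay at -63.4 and -29.4. Levels are in CPM, the counts of a gene divided by the size of its library, after scaling of library sizes by the trimmed mean of M-values (TMM), and libraries are always given in the order of replicates 1, 2 and 3. The TMM factor was 1.37 in WT replicate 1 and 0.874 to 1.04 in the other libraries. All 15 EC markers, among them Pecam1 and Cdh5, were detected in every library, with a summed level of 2090 to 3801 CPM in WT and 2481 to 3877 CPM in KO. Markers of other cells were also present. The 8 alveolar type II markers, genes of the surfactant-secreting cell of the alveolus, had summed levels of 5579, 52500 and 16150 CPM in the WT libraries and of 41300, 50310 and 40880 CPM in the KO libraries, with none at 0. In such bulk samples fewer cells of a type cannot be told apart from less RNA per cell.

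The chaperones were abundant in every library, and their levels between genotypes overlapped. Differences among WT libraries were larger than the difference between genotypes. By contrast, after TMM scaling Atf4, Ddit3 and Xbp1 lay lower in every KO library than in every WT library. Their ratios of mean CPM were between 0.79 and 0.821. For Atf4 and Ddit3 that order depended on the scaling. Over total counts, Atf4 in KO replicate 3 (2405 of 27993484) was above WT replicate 2 (2870 of 35184063). Ddit3 in KO replicate 3 (232 of 27993484) was likewise above WT replicate 3 (191 of 24464324). None of the 10 genes passed edgeR's quasi-likelihood test at an adjusted p under 0.05 (0 of 10, against 0.109% of all genes tested), and none passed DESeq2 (0 of 10, against 1.21%). At an unadjusted p under 0.05 the count was also 0 of 10, where 10.3% of all genes stood, 4.68% of all genes being lower in KO. After TMM scaling, every KO library was under every WT library for 3 of the 10 genes, against 9.2% of all genes. The reverse order was found for 0 of the 10, against 8.59%.

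**Figure D1:**
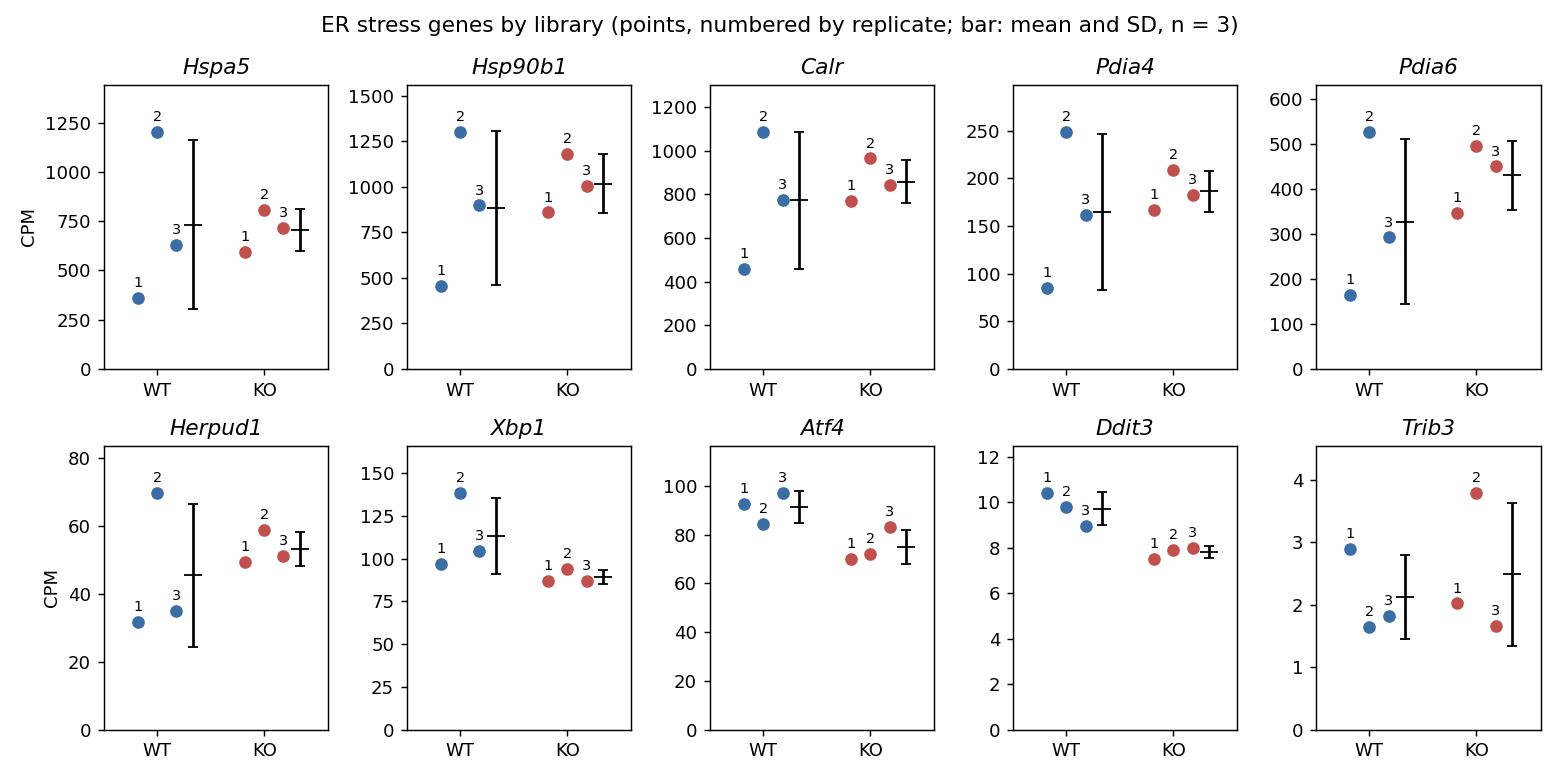
Level of the 10 genes in CPM (y axis, linear, from 0) in the WT and KO libraries (points, numbered by replicate), with the mean and SD of the 3 libraries beside them. The chaperones and Herpud1 spread widely among the WT points, from WT replicate 1 at the bottom to WT replicate 2 at the top, whereas the KO points of Xbp1, Atf4 and Ddit3 all sit below the WT points.

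Per kilobase of exon, the mean level over the 6 libraries ran from 283 CPM per kb for Calr through Hsp90b1 (236), Hspa5 (170), Pdia6 (101), Pdia4 (73.3), Atf4 (48.2), Xbp1 (31.2), Herpud1 (21.1) and Ddit3 (5.12) to 1.08 CPM per kb for Trib3. By this mean the 3 general chaperones stood above the disulfide isomerases, and these above every regulator. Single libraries could differ, since Pdia4 in WT replicate 1 (35.4 CPM per kb) lay under the lowest Atf4 value of any library (40.6). In the KO libraries, Calr (298 ± 34.3, SD, n = 3) and Hsp90b1 (252 ± 40.2) were the only neighbours in this order whose SD ranges overlapped. In WT, the SD ranges of all neighbours from Calr down to Atf4 overlapped, as did those of Xbp1 (34.8 ± 6.82) and Herpud1 (19.5 ± 9.01). Trib3 rested on few counts, 118, 56 and 39 in WT and 47, 103 and 48 in KO.

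Hspa5 (ENSMUSG00000026864, chr2:34771970-34777547 on GRCm38) encodes BiP, the main HSP70 of the ER and the brake on the sensors. It had levels of 362, 1202 and 631 CPM in the WT libraries and of 595, 809 and 717 CPM in the KO libraries. The KO libraries all fell inside the range of the WT libraries, whose highest value was 3.32 times the lowest, against 1.36 times in KO. The means were 732 ± 429 CPM in WT and 707 ± 108 CPM in KO (SD, n = 3). The log2 fold change of KO over WT was -0.05 (95% interval -1.01 to 0.91, quasi-likelihood adjusted p = 0.974). The interval holds changes of either sign, so these libraries do not settle the direction.

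Hsp90b1 (ENSMUSG00000020048, chr10:86690209-86705509) encodes GRP94, the HSP90 of the ER, and had levels of 456, 1299 and 898 CPM in the WT libraries and of 859, 1182 and 1005 CPM in the KO libraries, again with KO inside the WT range. Its log2 fold change was 0.20 (SE 0.378, adjusted p = 0.857, edgeR). Calr (ENSMUSG00000003814, chr8:84841850-84846934) encodes calreticulin, a calcium-binding lectin that holds glycoproteins until they are folded. It had levels of 457, 1085 and 774 CPM in the WT libraries and of 769, 965 and 843 CPM in the KO libraries. Of the 5 chaperones it spread least among WT libraries, 2.37 times from lowest to highest. The log2 fold change was 0.15 (SE 0.326, adjusted p = 0.875, edgeR).

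Both Pdia4 and Pdia6 encode disulfide isomerases, which make and reshuffle the disulfide bonds of secreted proteins. Pdia4 (ENSMUSG00000025823, chr6:47796141-47813430) had levels of 85.0, 248 and 162 CPM in the WT libraries and of 167, 209 and 183 CPM in the KO libraries. Pdia6 (ENSMUSG00000020571, chr12:17266545-17284770) had levels of 164, 527 and 293 CPM in the WT libraries and of 347, 496 and 451 CPM in the KO libraries. In both genes WT replicate 1 was the lowest library and WT replicate 2 the highest, and the KO libraries lay between WT replicates 3 and 2. The log2 fold changes were 0.18 (SE 0.35, adjusted p = 0.863) for Pdia4 and 0.40 (95% interval -0.53 to 1.32, adjusted p = 0.725, edgeR) for Pdia6, the highest of the 10 genes.

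Herpud1 (ENSMUSG00000031770, chr8:94386438-94395377) encodes an ER membrane protein that assembles the machinery for degrading misfolded proteins. It had levels of 31.6, 69.6 and 35.03 CPM in the WT libraries and of 49.3, 58.8 and 51.0 CPM in the KO libraries. WT replicates 1 and 3 lay below all KO libraries and WT replicate 2 above them. The log2 fold change was 0.22 (SE 0.292, adjusted p = 0.787), and DESeq2 did not call it either. Without WT replicate 2 it was 0.64 (adjusted p = 0.0467, edgeR), so that Herpud1 then passed the test, as did 5.29% of all genes in that fit (791 of 14950). It was the only one of the 10 genes to pass in any fit that left out 1 library.

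Xbp1 (ENSMUSG00000020484, chr11:5520659-5525893), the transcription factor of the IRE1 branch, had levels of 96.8, 138 and 104 CPM in the WT libraries and of 86.8, 94.2 and 87.1 CPM in the KO libraries. The lowest WT library and the highest KO library were thus 96.8 and 94.2 CPM, with no overlap but little distance. The mean was 113 ± 22.2 CPM in WT and 89.4 ± 4.22 CPM in KO (SD, n = 3), a ratio of 0.79. The log2 fold change was -0.34 (95% interval -0.73 to 0.05, adjusted p = 0.524, edgeR). Unlike the chaperones, Xbp1 did not have its lowest value in WT replicate 1, although WT replicate 2 was again the highest.

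Atf4 (ENSMUSG00000042406, chr15:80255184-80257540) encodes the transcription factor that the eIF2alpha kinases act through, and had levels of 92.6, 84.3 and 97.0 CPM in the WT libraries and of 70.0, 71.9 and 83.0 CPM in the KO libraries. All KO values were lower than all WT values, with KO replicate 3 nearest to WT replicate 2. The means were 91.3 ± 6.48 and 74.95 ± 7.005 CPM (SD, n = 3), a ratio of 0.821, and the WT libraries differed by 1.15 times only. The log2 fold change was -0.28 (95% interval -0.60 to 0.03, adjusted p = 0.508, edgeR).

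Ddit3 (ENSMUSG00000025408, chr10:127290774-127296288) encodes CHOP, an ATF4 target tied to cell death under lasting stress. The gene had levels of 10.4, 9.81 and 8.94 CPM in the WT libraries and of 7.52, 7.91 and 8.003 CPM in the KO libraries, with no overlap. The means were 9.72 ± 0.734 and 7.81 ± 0.255 CPM, a ratio of 0.804, and the log2 fold change was -0.32 (95% interval -0.65 to 0.01, unadjusted p = 0.058, adjusted p = 0.498, edgeR). Its opposite-strand neighbour Mars overlaps it, and the stranded counting tells the pair apart. Trib3 (ENSMUSG00000032715, chr2:152337422-152344032), a pseudokinase induced by ATF4 and CHOP that damps their output, went neither way. It had levels of 2.89, 1.64 and 1.83 CPM in the WT libraries and of 2.02, 3.79 and 1.66 CPM in the KO libraries, with the highest value in KO replicate 2. Its log2 fold change of 0.22 (95% interval -0.70 to 1.14, adjusted p = 0.848, edgeR) turned to -0.25 without that library and to -0.022 with total-count scaling.

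**Figure D2:**
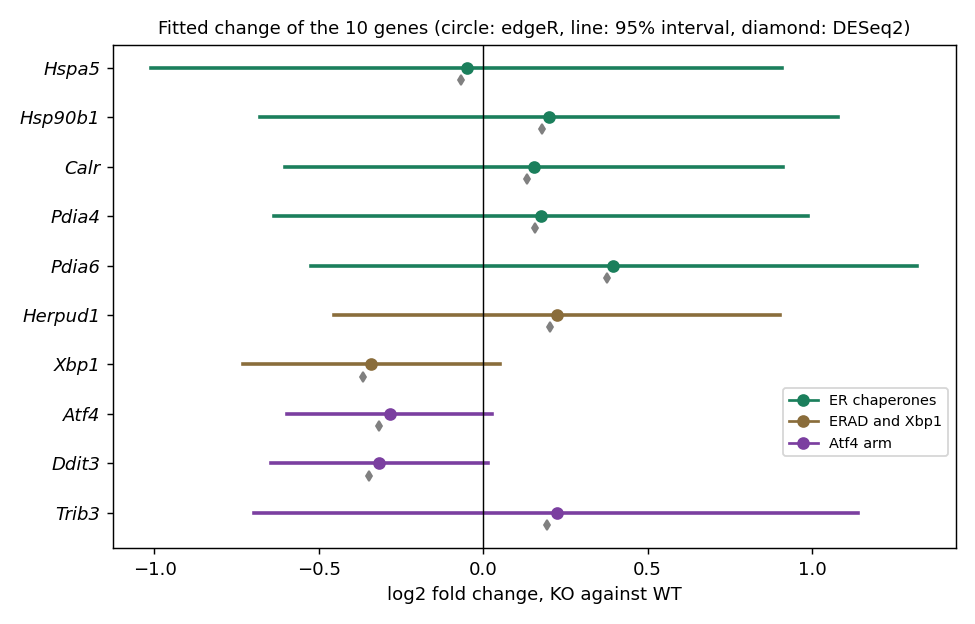
Fitted log2 fold change of KO over WT (x axis) for each of the 10 genes (rows) from edgeR's quasi-likelihood test (circles, with 95% intervals as lines) and from DESeq2 (diamonds). Every interval crosses 0, the intervals of Xbp1, Atf4 and Ddit3 reach only 0.05, 0.03 and 0.01 above it, and those of the chaperones span from -1.01 to 1.32 in all.

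Across libraries the chaperones varied together, and the Atf4 arm did not follow them. The mean log2 CPM of the 5 chaperones took the values 7.99, 9.53 and 8.85 over the WT libraries and 8.88, 9.29 and 9.10 over the KO libraries. All 5 were lowest in WT replicate 1 and highest in WT replicate 2, an order that 7.46% of all genes tested shared. The mean log2 CPM of Atf4, Ddit3 and Trib3 was 3.83, 3.49 and 3.57 in WT and 3.37, 3.70 and 3.39 in KO. The library lowest for the chaperones, WT replicate 1, was thus the highest for the mean of the Atf4 arm. Of its genes only Ddit3 was itself highest there, whereas Atf4 was highest in WT replicate 3 and Trib3 in KO replicate 2. Trib3, which rests on the fewest counts, weighs as much as Atf4 and Ddit3 in this mean and in the differences that follow. The Atf4 arm minus the chaperones was -4.16, -6.04 and -5.28 in WT and -5.50, -5.59 and -5.71 in KO on the log2 scale, values that do not depend on how libraries are scaled. The mean was -5.16 ± 0.945 in WT and -5.60 ± 0.105 in KO (SD, n = 3), a difference of -0.44 that was smaller than the SD of the WT libraries. It was 0.06 without WT replicate 1 and -0.88 without WT replicate 2. No test was made of these means, because the genes were chosen with results known.

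Likeness between genes was measured as the root mean square difference of log2 CPM after centring each gene on its mean over the 6 libraries. It was 0.0485 to 0.217 among the 10 chaperone pairs, 0.12 to 0.514 among the 3 pairs of the Atf4 arm and 0.489 to 0.797 for the 15 pairs that join a chaperone with a gene of the Atf4 arm. The gene most like Hspa5 among all tested was Hyou1 (0.0799), which encodes another ER chaperone and exchange factor of BiP, with 88.2, 245 and 135 CPM in the WT libraries and 131, 171 and 157 CPM in the KO libraries. Ftx (0.0935), a noncoding RNA, and P4ha1 (0.101), a subunit of collagen prolyl hydroxylase, came next. Nearest to Atf4 were Rras (0.0381), a small GTPase, Plcb4 (0.0398), a phospholipase, and Kri1 (0.0401), with log2 fold changes of -0.28, -0.26 and -0.23. These are descriptions over 6 libraries that share depth and scaling.

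**Figure D3:**
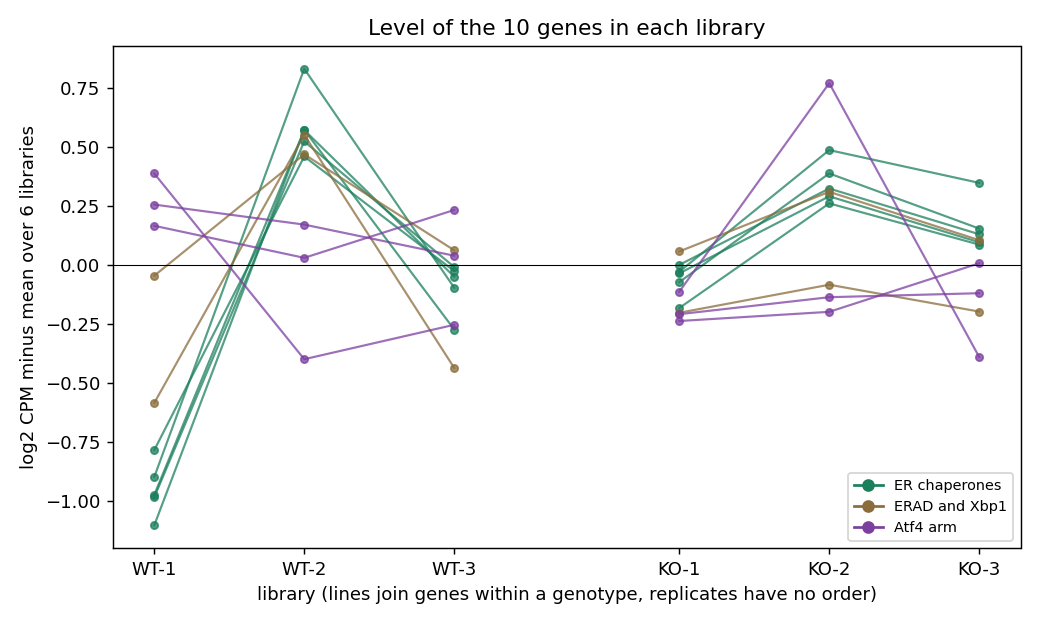
Log2 CPM of each gene minus its mean over the 6 libraries (y axis) in the 3 WT and 3 KO libraries (x axis), with 1 line per gene within a genotype, coloured by role. The 5 chaperone lines run together from the lowest point in WT replicate 1 to the highest in WT replicate 2, while Atf4 and Ddit3 lie above 0 in all WT libraries and at 0.007 or less in all KO libraries.

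The other genes of the ER side were read from 5 lists with 67 tested genes. None was called by edgeR (0 of 67) or by DESeq2, and 6 stood at an unadjusted p under 0.05, where 10.3% of all genes stood. Their log2 fold changes were above 0 for 56 of the 67 (83.6%), against 54.1% of all genes, with a median of 0.31 against 0.03, and for 52 with total-count scaling, which moved the median of all genes to -0.13. WT replicate 1 was the lowest library for the same share, 83.6%, against 26.7% of all genes. WT replicate 2 was the highest for 50.7%, against 18.6% of all genes. Without WT replicate 1 the median was 0.06, and without WT replicate 2 it was 0.56 with 12 genes called higher, in a fit that called 5.29% of all genes. The values of the chaperones thus turned on which WT library was present, and their median went from 0.18 to -0.12 without WT replicate 1 and to 0.55 without WT replicate 2.

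Markers of other cell types differed between libraries. After TMM scaling, the summed level of every marker list, ECs included, was lowest in WT replicate 1, while the highest library differed between lists. This order depended in part on the TMM factor of 1.37 in WT replicate 1. Over total counts, WT replicate 1 was not the lowest library for the EC, club cell, macrophage and neutrophil sums. WT replicate 1 was the lowest library for 8 of 9 macrophage and 5 of 6 fibroblast markers, against 26.7% of all genes. All 8 alveolar type II markers were lowest in WT replicate 1 and 7 of them highest in WT replicate 2. Their median log2 fold change was 0.79 with 0 called by edgeR or DESeq2 (0 also at an unadjusted p under 0.05). All 6 neutrophil markers were highest in WT replicate 2 and 4 were lowest in WT replicate 1, with a median of 0.04. Of the 8 airway club cell markers 5 were lowest in WT replicate 1, but 1 was highest in WT replicate 2, and the sum was highest in KO replicate 2, at 76430 CPM. The summed plasma cell markers (121, 644 and 227 CPM in WT, 463, 497 and 448 CPM in KO) were carried by Sdc1, which epithelium also expresses. Of the 7 tested, 5 had a log2 fold change above 0 (median 0.53), while Irf4 and Igha were at -0.77 and -0.43. B cell markers followed genotype instead. All 9 were higher in every KO library than in every WT library (median 2.30), against 8.59% of all genes. EdgeR called 3 of them and DESeq2 7, against 0.109% and 1.21% of all genes. The 9 markers summed to 13.0 to 27.2 CPM in WT and 93.6 to 99.8 CPM in KO. The part of these cells in the values of the 10 genes was not tested.

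Among the membrane sensors and the proteases that cut ATF6, all 7 had a log2 fold change above 0 (median 0.31), or 6 of 7 with total-count scaling. They ran from 0.08 for Mbtps2, the site-2 protease, to 0.60 for Ern2, the IRE1 form of mucosal epithelium. Ern2 had levels of 3.72, 4.40 and 2.90 CPM in the WT libraries and of 5.16, 6.84 and 4.79 CPM in the KO libraries, without overlap (adjusted p = 0.468, edgeR). In the BiP network of cochaperones and glycoprotein folding factors, 11 of 15 were above 0 (median 0.31). At its ends stood 2 partners of BiP. Sil1, a nucleotide exchange factor, had levels of 26.1, 64.6 and 36.3 CPM in the WT libraries and of 59.9, 81.9 and 69.2 CPM in the KO libraries (log2 fold change 0.73, adjusted p = 0.484). Sdf2l1, which works with the DNAJ cochaperones, had levels of 15.1, 18.4 and 12.9 CPM in the WT libraries and of 8.68, 12.03 and 10.3 CPM in the KO libraries (log2 fold change -0.59, adjusted p = 0.386, edgeR), so that every KO library was under every WT library.

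The disulfide isomerase list held 11 genes, all above 0 (median 0.37), from Txndc11 at 0.16 to Txndc5 at 0.66. Txndc5, a thioredoxin-domain protein of the ER, had levels of 67.2, 151 and 90.9 CPM in the WT libraries and of 154, 190 and 145 CPM in the KO libraries (adjusted p = 0.494, edgeR). Of 15 genes for ER-associated degradation, 12 were above 0 (median 0.31), from Ubxn4 at -0.21, an anchor for the p97 ATPase, to Derl3 at 0.68, a channel protein that had a mean of 0.580 ± 0.294 CPM over WT and of 0.909 ± 0.303 CPM over KO libraries. For ER translocation and export, 15 of 19 were above 0 (median 0.32). Sec23b, a subunit of the COPII coat of vesicles that leave the ER, had levels of 33.4, 32.4 and 31.9 CPM in the WT libraries and of 26.2, 24.2 and 26.1 CPM in the KO libraries, the lowest of that list at -0.35 (SE 0.111, unadjusted p = 0.0135, adjusted p = 0.374, edgeR). Its highest gene, Sec61g at 0.69, had a mean of 0.470 ± 0.217 CPM over WT and of 0.767 ± 0.300 CPM over KO libraries (SD, n = 3), a level that rests on few counts.

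Genes downstream of Atf4 did not share a direction. Of 23 listed targets 22 were tested, 10 with a log2 fold change above 0 and 12 below (median -0.05). EdgeR called 0 of the 22, with 5 at an unadjusted p under 0.05 (4 lower in KO and 1 higher), against 10.3% of all genes. After TMM scaling, every KO library was under every WT library for 5 of the 22, against 9.2% of all genes. The reverse order was found for 1, against 8.59%. DESeq2 called 4, of which 3 were lower in KO, against 1.21% of all genes. Atf3, a stress-induced transcription factor, had levels of 11.5, 14.0 and 14.6 CPM in the WT libraries and of 4.90, 2.32 and 3.52 CPM in the KO libraries (log2 fold change -1.90, SE 0.272, adjusted p = 0.0721 by edgeR and 1.08e-07 by DESeq2). Ddit4, an inhibitor of mTORC1, had levels of 18.7, 24.7 and 22.1 CPM in the WT libraries and of 7.18, 10.9 and 7.93 CPM in the KO libraries (log2 fold change -1.33, adjusted p = 0.0852 by edgeR and 8.73e-06 by DESeq2). Cebpb, a partner of ATF4 on CARE, had levels of 34.96, 47.4 and 36.9 CPM in the WT libraries and of 24.5, 23.0 and 21.5 CPM in the KO libraries (log2 fold change -0.79, adjusted p = 0.176 by edgeR and 0.00482 by DESeq2). For these 3 genes the WT libraries lay well above the KO libraries, WT replicate 2 included.

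Vldlr, a lipoprotein receptor, went the other way, with 6.34, 19.4 and 9.18 CPM in the WT libraries and 29.4, 30.5 and 27.7 CPM in the KO libraries (log2 fold change 1.33, adjusted p = 0.327 by edgeR and 0.0316 by DESeq2). Without WT replicate 2, edgeR called 5 targets, in a fit that called 5.29% of all genes. Atf3 (adjusted p = 0.0223), Ddit4 (0.0245) and Cebpb (0.0341) were called lower and Vldlr (0.017) and Slc38a2 (0.0213) higher. Atf3, Ddit4 and Cebpb are also induced by other stresses and by growth signals.

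The aminoacyl tRNA synthetases, a classical set of ATF4 targets, were below 0 in 11 of 12 (median -0.15), with 0 called by either tool. At an unadjusted p under 0.05 by edgeR stood 1 of the 12, against 10.3% of all genes. Iars was not that gene (unadjusted p = 0.0841, edgeR) but had the lowest log2 fold change of the list, -0.31. Its levels were 25.7, 18.2 and 22.2 CPM in the WT libraries and 16.7, 18.1 and 18.6 CPM in the KO libraries, with overlap. Lars, the only one above 0, had 0.09. The list of eIF2alpha, its phosphatase and exchange factor subunits and its kinases other than PERK had all 7 genes below 0 (median -0.17). PERK itself (Eif2ak3), listed with the sensors, was above 0, at 0.36 (SE 0.318, adjusted p = 0.69, edgeR). None of the 7 was called by either tool or stood at an unadjusted p under 0.05. Ppp1r15a, the stress-induced phosphatase subunit GADD34, had levels of 27.3, 30.9 and 26.8 CPM in the WT libraries and of 18.7, 25.6 and 24.7 CPM in the KO libraries, without overlap (log2 fold change -0.30, adjusted p = 0.535, edgeR). Eif2b5 had the smallest difference, -0.03. After TMM scaling, every KO library was under every WT library for 4 of the 7 (Ppp1r15a, Eif2ak1, Eif2ak4 and Eif2s1), against 9.2% of all genes. Over total counts, only Eif2s1 of these 4 kept that order.

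As a comparison, the cytosolic heat shock genes, which answer to misfolded protein outside the ER, were lower in KO throughout. All 14 were below 0 with every KO library under every WT library (median -1.21), an order found for 9.2% of all genes. EdgeR called 5 and DESeq2 11, against 0.109% and 1.21% of all genes. Without WT replicate 2 edgeR called 12, in a fit that called 5.29% of all genes. It called 2 without WT replicate 3, where 13 of 15109 genes were called, and 0 when a KO library was left out, where no gene was called. Hspa1b fell by 3.37 on the log2 scale (adjusted p = 0.0188), Hsph1 fell by 2.17 (adjusted p = 0.0099) and Hspb1 fell by 1.53 (adjusted p = 0.0276, all edgeR). Hspa1b has a near-identical copy, Hspa1a, so its counts are uncertain. The largest difference between genotypes was thus seen in the cytosolic heat shock list among the 9 lists, and the ER chaperones of the same HSP70 and HSP90 families, Hspa5 at -0.05 and Hsp90b1 at 0.20, were not called. The difference between cytosolic and ER lists was not tested.

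**Figure D4:**
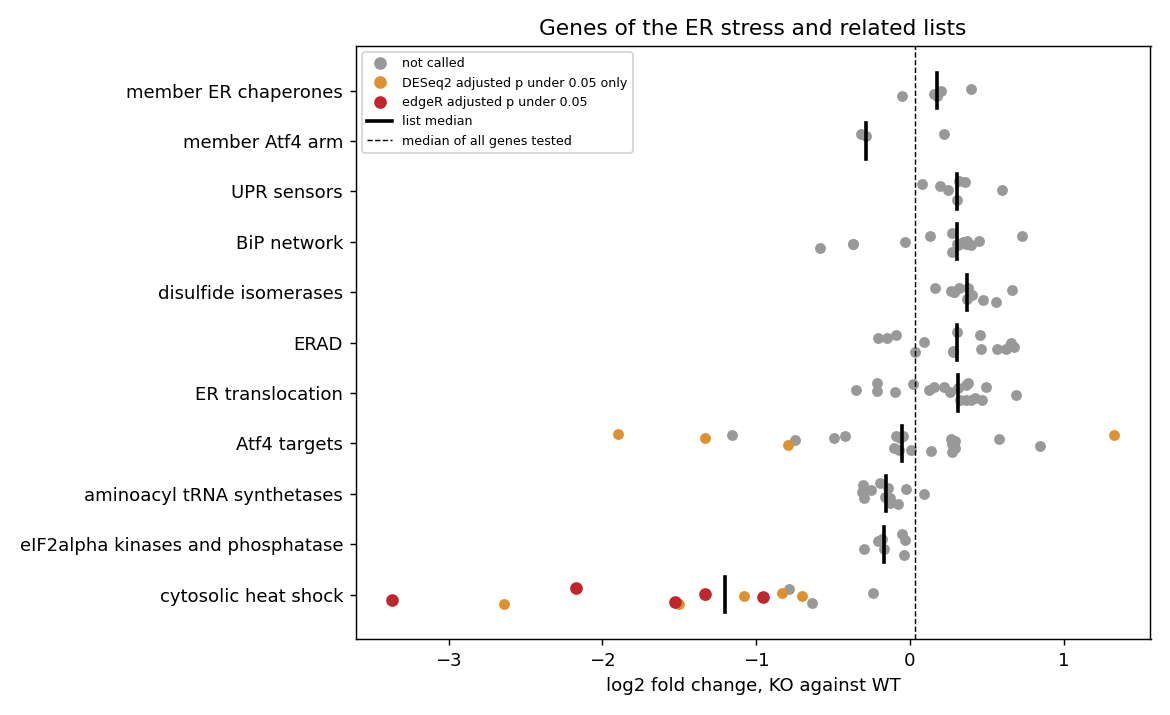
Fitted log2 fold change of KO over WT (x axis) for every tested gene (points) of the 2 member groups and the 9 lists (rows), with the median of each list as a bar and the median of all genes tested as a dashed line. Orange points passed DESeq2 only and red points passed edgeR at an adjusted p under 0.05, and they lie in the Atf4 target and cytosolic heat shock rows.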

How the data were processed

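The authors deposited 1 table of whole-number read counts per gene for each of the 6 libraries, without normalization. Per the submitters' processing notes and the file headers, reads were demultiplexed with bcl2fastq 2.18, aligned with STAR 2.5.4b and counted by featureCounts (Subread 2.0.0) on GRCm38, by strand and leaving out reads that align to several places or overlap several genes. Near-identical genes lose reads in this way. Symbols came from GENCODE (47224 of 47729 genes).

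KO and WT were compared in edgeR 4.0.16 under R 4.3.3 (filterByExpr, TMM, glmQLFit and glmQLFTest with defaults, genotype only) and Benjamini-Hochberg adjustment over 14625 genes, with an adjusted p under 0.05 as the threshold. The test was run on simulated data in which genes varied independently, which does not cover variation that genes share within a library. Log2 CPM used a prior count of 2. With 3 libraries a group, an exact permutation test cannot go below p = 0.1 and was not used. Every pair of libraries differed beyond sampling noise (chi-square of 36.97 or more for each degree of freedom). DESeq2 1.42.0 and limma 3.58.1 (voom), other scalings and filters, the replicate number as a block and each library left out in turn were alternatives. In each list, the text names genes called by either tool and the highest and lowest log2 fold change, of heat shock at most 3 genes, and for Hspa5 and Atf4 the 3 most alike genes. The 10 genes and the lists were chosen with earlier results of these data known. Slc38a2 was named after its value was seen.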

Additional observations from a re-analysis of the deposited data

How the results depend on the processing

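The number of genes called was 16 in the main test, 187 with DESeq2, 26 with limma-voom, 26 with RLE scaling, 123 with total-count scaling and 152 without a filter on low counts, and ranged from 0 to 791 when 1 library was left out. It was 791 without WT replicate 2 (660 higher, 131 lower) and 0 without any 1 of the KO libraries. Total-count scaling moved the median log2 fold change of all genes from 0.03 to -0.13. Statements that groups did not overlap refer to TMM-scaled CPM. Over total counts some of these groups overlapped, those of Atf4 and Ddit3 among them. The number of the 10 genes called ranged from 0 to 1 over libraries left out and was 0 in every other alternative. The 1 gene was Herpud1, at 0.64 without WT replicate 2 (adjusted p = 0.0467), where the 95% interval of the full test was -0.45 to 0.90.

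Directions changed for 5 of the 10 genes. Hspa5 was at 0.089 with limma-voom and 0.11 with the replicate block, and ranged from -0.38 to 0.48 over libraries left out, with 0.051 without KO replicate 1. Over the same fits Hsp90b1 ranged from -0.12 to 0.55, Calr from -0.12 to 0.45 and Pdia4 from -0.14 to 0.56, each lowest without WT replicate 1 and highest without WT replicate 2. Trib3 was at -0.022 with total-count scaling and ranged from -0.25 without KO replicate 2 to 0.52 without WT replicate 1. Xbp1 (-0.49 to -0.21), Atf4 (-0.45 to -0.26) and Ddit3 (-0.50 to -0.27) stayed below 0 in every alternative run, with a lowest adjusted p of 0.17, and Pdia6 (0.07 to 0.88) and Herpud1 (0.01 to 0.64) above 0. The Atf4 arm minus the chaperones (-0.44) ranged from -0.88 without WT replicate 2 to 0.06 without WT replicate 1. The cause of these changes was not tested.

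Deviations of same-numbered libraries from their group means correlated at -0.08, 0.22 and 0.01. These values cannot tell whether same-numbered libraries were handled together. The replicate block called 0 genes, with 1776 at an unadjusted p under 0.05, and 0 of the 10.

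Without WT replicate 2, edgeR called 4 genes of the BiP network, 3 disulfide isomerases, 3 degradation genes, 2 translocation genes and 5 Atf4 targets. That fit called 5.29% of all genes. The Atf4 targets called were 4 with DESeq2, 3 with total-count scaling and 4 without the filter. The heat shock genes called were 11, 8 and 9 in these, 0 with the replicate block, and 0 to 12 over libraries left out. Genes near or under 1 CPM, such as Derl3 and Sec61g, rest on few counts, and Trib3 is the shallowest of the 10.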
